A study of Mus musculus with 12 samples.

Results

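The genes of aminoacyl-tRNA synthesis are described here across 12 RNA libraries of L929, an established mouse fibroblast line. Members were the rows of the deposited count table that carry the KEGG term for aminoacyl-tRNA biosynthesis and reach a mean CPM, the count scaled for library size, of 1 over the 12 libraries. The table held 56287 rows, of which 44 carried the term, and all 44 passed both the level rule and the filter of the test. They comprise 21 cytosolic synthetases, 17 mitochondrial synthetases (symbols ending in 2), 4 enzymes that modify charged mitochondrial tRNA and 2 selenocysteine enzymes. Tarsl2 was placed with the cytosolic enzymes by its known location although its symbol ends in 2. Gars and Kars, counted as cytosolic, are known to serve both compartments.

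Aminoacyl-tRNA synthetases attach each amino acid to its own tRNA, using ATP, and so supply the ribosome. Most amino acids have separate nuclear genes for the enzyme that works in the cytosol and the enzyme imported into mitochondria, where ribosomes translate the few proteins encoded by mitochondrial DNA. When charging falls short, uncharged tRNA activates the kinase GCN2, and the transcription factor ATF4 that follows is known to raise the transcription of several cytosolic synthetase genes.

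All cells were wild type. The 4 groups of 3 libraries were mock, HT-DNA (transfected with Lipofectamine 2000 for 6 h), HT-DNA+AOA (the same, preceded by 1 h of AOA at 0.5 mM) and HT-DNA+AOA+Asp (the same again with Asp at 20 mM). The labels do not spell out AOA, commonly aminooxyacetate, which blocks aminotransferases, or Asp, commonly aspartate. It is not stated whether the mock group got the reagent too, and no group with AOA or Asp alone was analysed here. Separate cultures are not stated for the replicates, and p-values therefore rest on a spread between libraries that may be technical.

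Library totals lay between 19944571 and 27309291 estimated counts, and the lowest count of any member in any library was 149. The line was checked against markers: 7 of 8 fibroblast genes exceeded 1 CPM, with Thy1 near 0 at no more than 0.192 CPM. Summed fibroblast markers were 4897 to 5034 CPM in HT-DNA+AOA and 5319 to 6000 CPM in the other groups. Of 5 leukocyte markers Cd68 alone passed 1 CPM, Adgre1 was at 0 in every library, and their sum was 318 to 359 CPM in HT-DNA+AOA against 244 to 309 CPM elsewhere. None of 4 epithelial markers passed 1 CPM, and of 4 endothelial markers Vwf alone did, with sums of at most 2.43 and 6.81 CPM. Both the fibroblast and the leukocyte sums thus moved with AOA, and their part in the results below was not tested. The leukocyte sum was almost only Cd68, with means of 295 CPM in mock, 248 in HT-DNA and 342 in HT-DNA+AOA. Of the fibroblast genes Fn1 alone rose from HT-DNA to HT-DNA+AOA, from 39.8 to 71.5 CPM. In bulk RNA, fewer cells of a type and less RNA per cell cannot be told apart.

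The cytosolic synthetases were the abundant class. Per kilobase of the deposited gene length, the median cytosolic gene stood at 69.3 CPM per kb in mock, from 4.66 for Tarsl2 to 496 for Sars, the serine enzyme. The median mitochondrial gene stood at 9.30 CPM per kb, from 2.70 for Pars2, the proline enzyme, to 84.8 for Tars2, the threonine enzyme. Pairs of a cytosolic and a mitochondrial gene are given here for 13 amino acids. Phenylalanine, whose cytosolic enzyme is encoded by Farsa and Farsb, and glutamate and proline, which share the cytosolic Eprs, were not paired. In mock, 12 of the 13 had the higher level per kb for the cytosolic gene, with a median ratio of 7.01. The exception was threonine, where Tars and Tars2 were nearly level, at 84.3 and 84.8 CPM per kb. The serine pair lay farthest apart, with a ratio of 54.3, and the asparagine pair had a ratio of 30.6 while the leucine pair had 1.56. In HT-DNA+AOA the median ratio was 11.3, the highest of the 4 groups, and all 13 ratios were above 1.

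Summed over the 21 genes, cytosolic synthetase mRNA was 5576 ± 141 CPM in mock, 5844 ± 58.7 in HT-DNA, 7100 ± 85.2 in HT-DNA+AOA and 6027 ± 36.6 in HT-DNA+AOA+Asp (mean ± SD, n = 3). The 17 mitochondrial genes together gave 793 ± 14.4, 831 ± 6.07, 885 ± 18.7 and 848 ± 3.90 CPM in the same order. On the mean log2 CPM of a class, the cytosolic class stood 0.34 above mock in HT-DNA+AOA and the mitochondrial class 0.09 above it. On this mean the HT-DNA+AOA libraries were the highest for the cytosolic class, apart from all others. The mitochondrial means of the groups that received DNA overlapped. In summed CPM, however, the mitochondrial libraries of these groups were apart. They lay at 864 to 899 CPM in HT-DNA+AOA, 844 to 851 in HT-DNA+AOA+Asp and 824 to 836 in HT-DNA. By group mean, 17 of the 21 cytosolic genes were highest in HT-DNA+AOA and 15 were lowest in mock. Among the 17 mitochondrial genes, 6 were highest and 7 were lowest in HT-DNA+AOA. Such orders take any difference of means, called or not, and their shares over all genes were not computed.

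**Figure D1:**
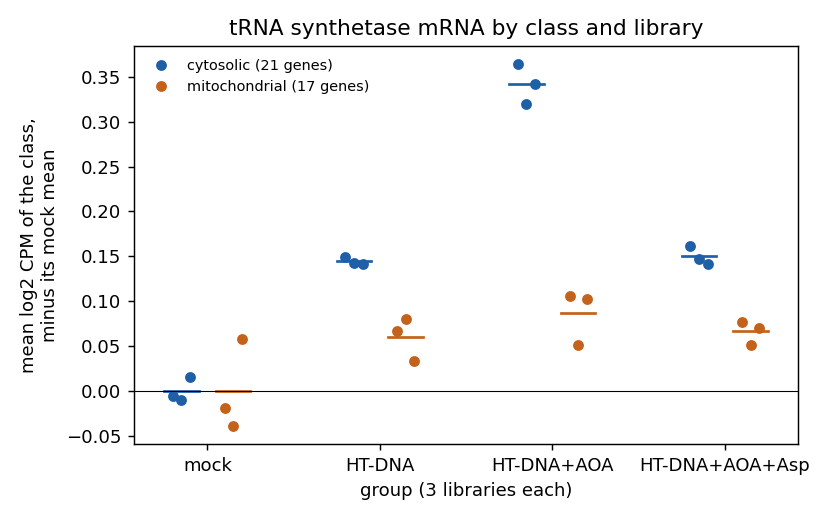
Mean log2 CPM of the 21 cytosolic and the 17 mitochondrial synthetases in each library (points), minus the mean of the same class in mock, with a bar at the mean of the 3 libraries of a group. The cytosolic mean is 0.14 in HT-DNA, 0.34 in HT-DNA+AOA and 0.15 in HT-DNA+AOA+Asp, and the mitochondrial mean is 0.06, 0.09 and 0.07.

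HT-DNA was compared with mock to see how transfected DNA, with its reagent, moved the pathway. The histidine enzyme Hars, the arginine enzyme Rars2, the methionine enzyme Mars2 and the tyrosine enzyme Yars2 rose most, and 3 of these 4 are mitochondrial. Of the 44 members, 18 were higher and 3 lower at an adjusted p under 0.05 in edgeR's quasi-likelihood test, beside 21.2% and 19.8% of the 14694 genes tested. As shares of the members these are 40.9% and 6.82%. No member changed by 2-fold or more, a size that 1.16% of all genes reached upward and 1.59% downward. The cytosolic class had 11 higher and 1 lower of 21, with a median log2 fold change of 0.11, and the mitochondrial class 5 higher and 2 lower of 17, with a median of -0.00. Over all genes the median was -0.01. Scaled by library size alone, the cytosolic median was 0.051 and the mitochondrial median -0.065. In that scaling 16 members were higher and 9 lower, and all genes gave 2417 higher and 3740 lower in place of 3112 and 2911.

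Rars2 stood at 16.6, 16.9 and 18.5 CPM in mock and at 25.1, 26.0 and 25.7 in HT-DNA, a log2 fold change of 0.56 (SE 0.072, adjusted p = 1.81e-06 in edgeR). Mars2 was at 38.5, 38.2 and 36.4 CPM in mock and at 54.3, 54.2 and 57.7 in HT-DNA (log2 fold change 0.55 with SE 0.057, adjusted p = 8.78e-08 in edgeR). Neither gene had overlapping groups, and each HT-DNA library was above each mock library. Hars was at 47.1, 49.1 and 46.6 CPM in mock and 66.6, 67.8 and 65.1 in HT-DNA (log2 fold change 0.48 with SE 0.050, adjusted p = 8.34e-08 in edgeR). Yars2 was at 27.7, 30.03 and 30.7 CPM in mock and 43.8, 38.0 and 35.4 in HT-DNA (log2 fold change 0.41 with SE 0.070, adjusted p = 6.83e-05 in edgeR). For Hars the HT-DNA libraries were close together, whereas for Yars2 they spread from 35.4 to 43.8 CPM, still above mock. In the GENCODE annotation 7.97% of the exon bases of Hars lie in exons of its neighbour Hars2, and the strand setting of the counting is not given in the sources used here.

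Among the other cytosolic genes called higher were Kars for lysine (log2 fold change 0.39), Dars for aspartate (0.37), the phenylalanine subunits Farsb (0.34) and Farsa (0.28), Tarsl2 (0.30), Tars (0.25), Vars for valine (0.19), Nars for asparagine (0.19), Rars (0.17) and Wars for tryptophan (0.11). The Rars call was lost under library-size scaling (edgeR adjusted p = 0.0823). That of Wars was lost in 7 of 12 alternatives, with edgeR adjusted p of 0.0548 to 0.301, among them library-size scaling and leaving out replicate 1 or 2 of either group. Sars was the only cytosolic gene called lower, by -0.19. Ears2 for glutamate (0.25) and Tars2 (0.20) rose among the mitochondrial genes, whereas Fars2 for phenylalanine (-0.35) and Lars2 for leucine (-0.26) fell. Qrsl1, the catalytic subunit of the amidotransferase that makes glutaminyl-tRNA in mitochondria, was higher by 0.36. Pstk, the kinase that acts on seryl-tRNA for selenocysteine, was higher by 0.29, but 58.8% of its exon bases lie in exons of Ikzf5 on the opposite strand and its call was lost in 3 of 12 alternatives, when either of the mock replicates 1 and 2, or the HT-DNA replicate 2, was left out (edgeR adjusted p = 0.0559, 0.0781 and 0.0598).

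HT-DNA+AOA was compared with HT-DNA to see what the compound did in transfected cells. Most cytosolic synthetases rose: 14 of 21 were called higher and 3 lower, with a median log2 fold change of 0.28 and a range from -0.28 to 0.51. The mitochondrial synthetases were divided, with 5 of 17 higher, 2 lower and a median of -0.01. Over all 44 members, 21 were higher and 7 lower in edgeR's test, beside 25.5% and 26.5% of all genes tested, whose median was 0.00. As shares, 66.7% of the cytosolic and 29.4% of the mitochondrial genes were higher, and no test of the difference between the classes was made. No member reached a 2-fold change, which 4.83% of all genes did upward and 2.92% downward.

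The largest rises were those of Sepsecs, Gatc, Eprs and Aars, while Hars2, the mitochondrial histidine enzyme, fell by 0.36 on the log2 scale. Sepsecs, which completes selenocysteinyl-tRNA, was at 23.1, 27.3 and 26.7 CPM in HT-DNA and at 43.5, 43.8 and 47.2 with AOA, a log2 fold change of 0.80 (SE 0.065, adjusted p = 1.21e-09 in edgeR). Gatc, a small subunit of the mitochondrial amidotransferase, was at 10.8, 11.9 and 14.6 CPM and rose to 20.0, 20.3 and 22.6 (log2 fold change 0.77 with SE 0.10, adjusted p = 1.27e-06 in edgeR). These were the members whose rise passed 1.5-fold, and their groups did not overlap. The other subunits of the same amidotransferase were lower, Qrsl1 by -0.32 and Gatb by -0.26 (edgeR adjusted p = 0.00317 and 0.00808). Mtfmt, which formylates the initiator methionyl-tRNA of mitochondria, had a log2 fold change of 0.03 and was not called.

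Eprs, which joins the glutamate and proline enzymes in a single protein, was at 430.1, 431 and 469 CPM in HT-DNA and at 647, 620.1 and 624 with AOA (log2 fold change 0.51 with SE 0.043, adjusted p = 2.52e-09 in edgeR). Rars, the cytosolic arginine enzyme, was at 249, 265 and 275 CPM and rose to 355, 372 and 366 (log2 fold change 0.47 with SE 0.046, adjusted p = 1.81e-08 in edgeR). In both genes the lowest AOA library lay well above the highest HT-DNA library. The alanine enzyme Aars rose by 0.51 as well, with 495 ± 15.3 CPM in HT-DNA and 704 ± 2.58 with AOA (edgeR adjusted p = 1.37e-09), and 15.1% of its exon bases lie in exons of Exosc6. Gars for glycine (0.39), Sars (0.33), Tarsl2 (0.32), Iars for isoleucine (0.31), Tars (0.29), Wars (0.28), Hars (0.18) and Kars (0.16) were also called higher.

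The cytosolic genes called lower with AOA were Farsa and Qars, each by -0.28, and Farsb by -0.14. Farsa and Farsb encode the subunits of the cytosolic phenylalanine enzyme, and Qars the glutamine enzyme. The fall of Farsb was not called without HT-DNA replicate 2, HT-DNA replicate 3 or HT-DNA+AOA replicate 2 (edgeR adjusted p = 0.0858, 0.0545 and 0.0521). Vars (0.11), Cars for cysteine (0.09), Mars1 for methionine (0.08) and Yars for tyrosine (0.08) were not called.

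**Figure D2:**
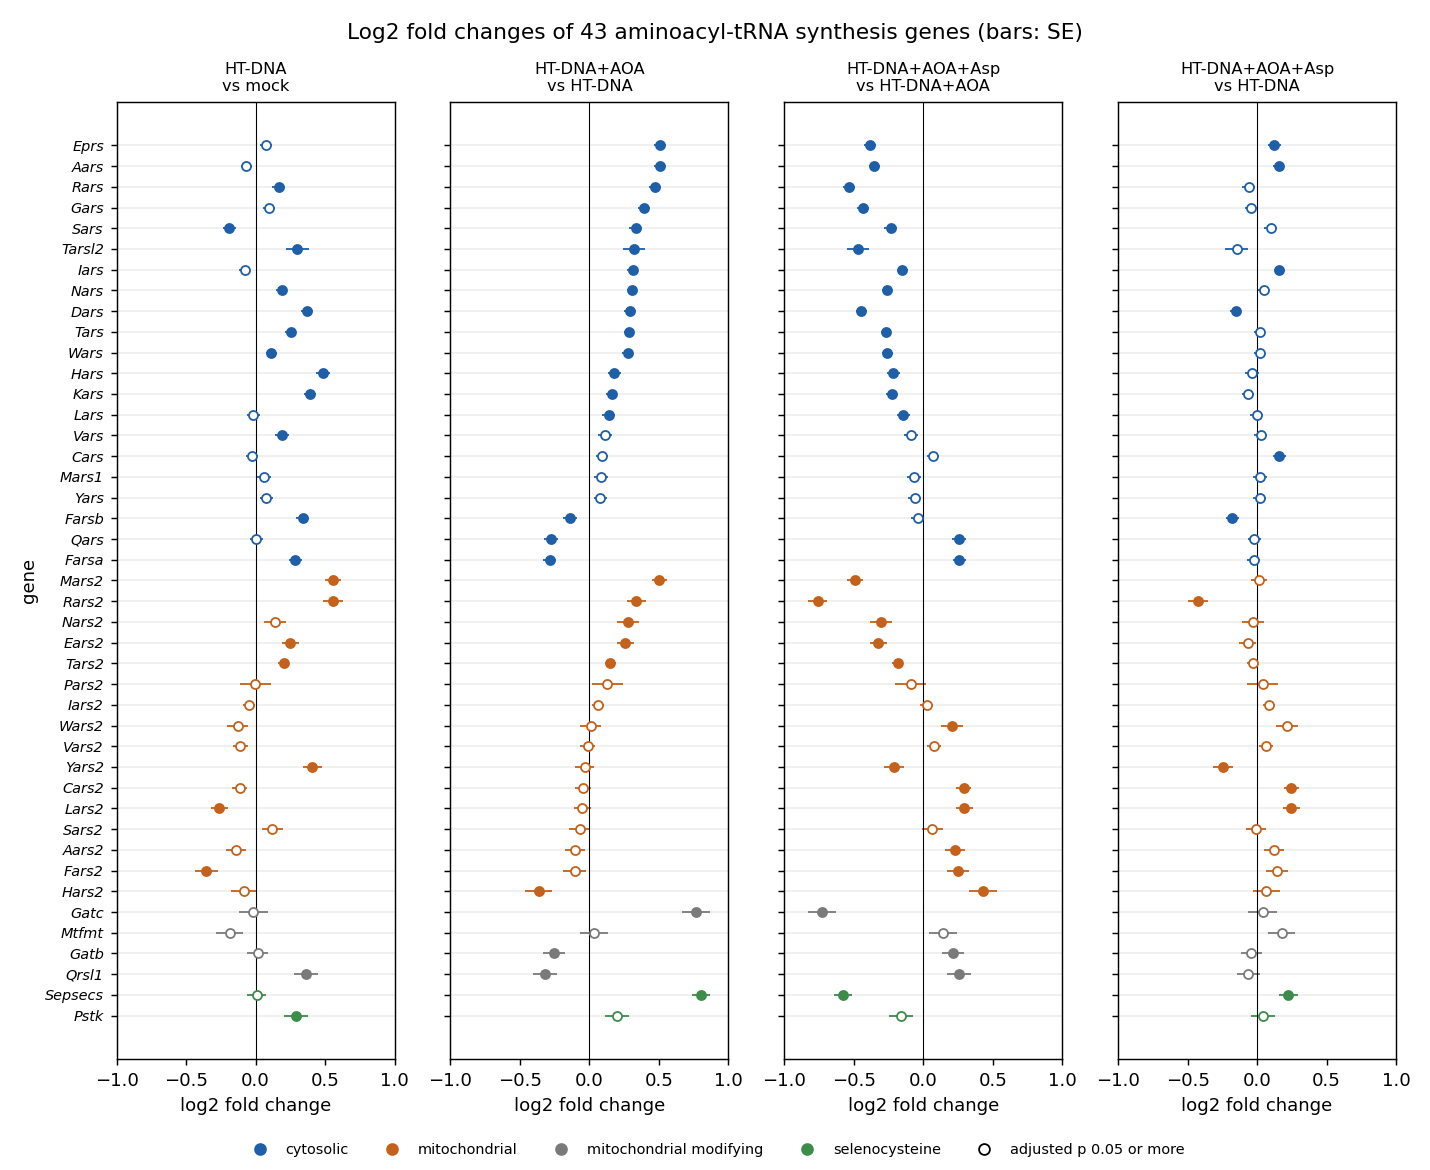
Log2 fold change (x axis, bars are SE) of 43 members (y axis, ordered within a class by the HT-DNA+AOA against HT-DNA value) in the 4 comparisons, with filled points for genes at an edgeR adjusted p under 0.05 and open points for the others. In the panel for HT-DNA+AOA against HT-DNA 14 of 21 cytosolic genes are filled to the right of 0, and in the next panel 14 are filled to the left of 0.

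Dars, the cytosolic aspartate enzyme, was at 132, 130.2 and 128 CPM in HT-DNA and at 161, 156 and 161 with AOA (log2 fold change 0.29 with SE 0.041, adjusted p = 3.12e-06 in edgeR). Its groups did not overlap.

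The asparagine enzymes moved together. Nars was at 412, 406 and 421 CPM in HT-DNA and at 512, 513 and 511 with AOA (log2 fold change 0.31 with SE 0.037, adjusted p = 3.79e-07 in edgeR). Nars2 was at 18.4, 17.7 and 17.8 CPM and rose to 23.5, 21.8 and 20.2 (log2 fold change 0.28 with SE 0.078, adjusted p = 0.00475 in edgeR). Both genes had every AOA library above every HT-DNA library, and their log2 fold changes differed by 0.03. For leucine, Lars was at 144, 148 and 147 CPM in HT-DNA and at 169, 151 and 163 with AOA (log2 fold change 0.14 with SE 0.046, adjusted p = 0.014 in edgeR). That small rise was not called under library-size scaling, without HT-DNA replicate 1 or without HT-DNA+AOA replicate 1, with edgeR adjusted p of 0.151, 0.0535 and 0.0863. Lars2 was at 78.2, 75.6 and 77.5 CPM in HT-DNA and at 81.8, 71.8 and 70.0 with AOA, so its groups overlapped, and it was not called (log2 fold change -0.05, SE 0.062).

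**Figure D3:**
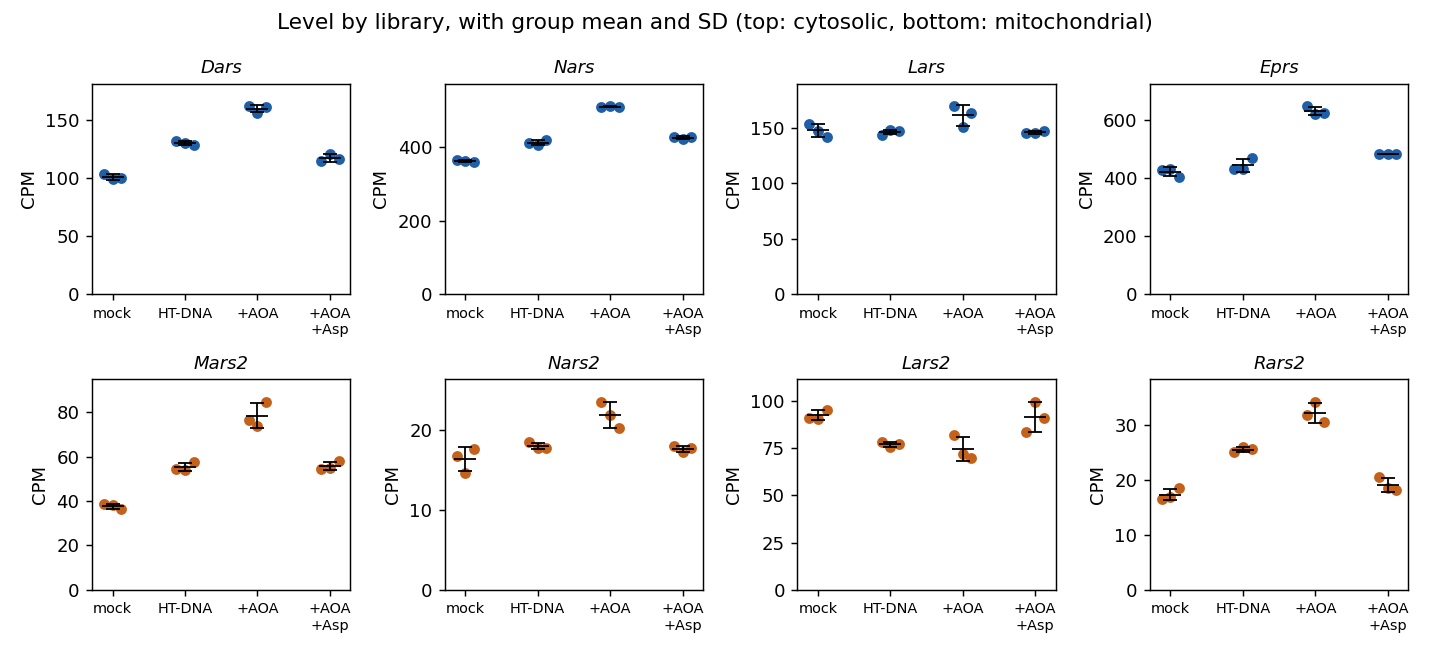
CPM by library (points) with the mean and SD of the 3 libraries of a group, for 4 cytosolic genes (top) and 4 mitochondrial genes (bottom), each with its own axis from 0. By group mean, Dars, Nars, Lars, Eprs, Nars2 and Rars2 are highest in HT-DNA+AOA. So is Mars2, which averages 78.5 CPM there against 55.4 in HT-DNA.

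Across the same 13 amino acids, the cytosolic gene had the higher log2 fold change with AOA in 12. The difference, cytosolic minus mitochondrial, was 0.61 for alanine, 0.54 for histidine and 0.40 for serine. It was smallest among the 12 for asparagine, at 0.03. The count takes any difference: the cytosolic to mitochondrial ratios of the groups overlapped for asparagine and for tyrosine (0.11). For cysteine, valine and tyrosine neither gene was called. Methionine, the amino acid outside the 12, was at -0.42, since Mars2 rose by 0.50 while Mars1 had 0.08 and was not called. Mars2 was at 54.3, 54.2 and 57.7 CPM in HT-DNA and 76.8, 74.0 and 84.7 with AOA, with no overlap (SE 0.055, adjusted p = 9.54e-08 in edgeR). Rars2 also rose, from a mean of 25.6 ± 0.462 to 32.3 ± 1.86 CPM (log2 fold change 0.34 with SE 0.068, adjusted p = 0.000266 in edgeR). Among the amino acids not paired, phenylalanine went the other way, with Farsa at -0.28 and Farsb at -0.14 against -0.11 for Fars2, which was not called. Eprs, at 0.51, was above Ears2 for glutamate (0.26) and Pars2 for proline (0.13, not called). In HT-DNA against mock the cytosolic gene had the higher value in 8 of the 13. Among these 8 the ratios of the groups overlapped for alanine, asparagine, threonine and tryptophan.

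**Figure D4:**
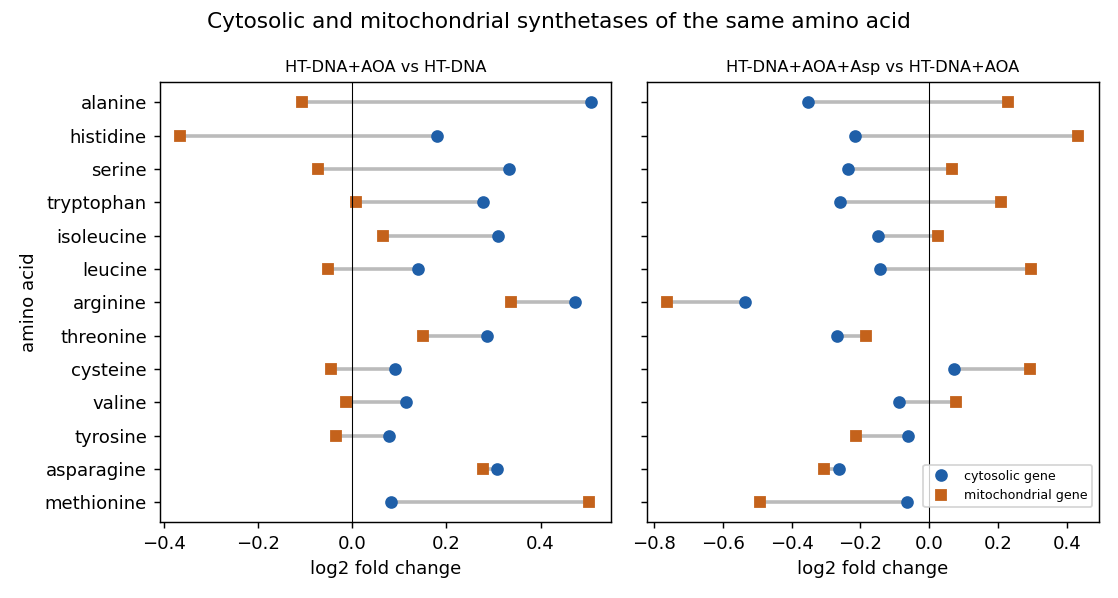
Log2 fold changes (x axis) of the cytosolic gene (circles) and the mitochondrial gene (squares) for 13 amino acids (y axis), joined by a line, for HT-DNA+AOA against HT-DNA and for HT-DNA+AOA+Asp against HT-DNA+AOA, which share the HT-DNA+AOA libraries. The circle lies right of the square for 12 amino acids on the left and for 4 on the right.

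Since ATF4 is known to bind C/EBP-ATF response elements, the promoters of the members were searched for the core letters TGATGNAA on both strands, in a window of 300 bases that starts 250 bases before the annotated start. RefSeq promoters (GRCm38.p6) were matched for 32 members, with 33 promoters. Of these 5 (15.2%) held the letters, against 1304 of 32851 promoters of the same length in the whole table (3.97%). All 5 belong to cytosolic synthetases, namely Aars, Gars, Iars, Tars and Yars, of 14 cytosolic genes matched, and 0 of 14 mitochondrial genes held them. The matches of Aars, Gars and Tars are shown with their flanking bases because these genes rose with AOA and carry the letters before the start. Each is printed 5′ to 3′ on the strand of its gene, and the capitals mark the match, which reads on the opposite strand. They lie at chr8:111033700-111033767 (Aars, + strand), chr6:55037941-55038000 (Gars, + strand) and chr15:11399659-11399703 (Tars, - strand).
Aars: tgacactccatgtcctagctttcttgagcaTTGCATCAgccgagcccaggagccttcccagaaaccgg
Gars: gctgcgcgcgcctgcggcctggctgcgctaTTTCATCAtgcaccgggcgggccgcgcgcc
Tars: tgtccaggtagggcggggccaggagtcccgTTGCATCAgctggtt

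The printed match of Aars, which holds 2, lies 104 bases before the annotated start, that of Gars 22 and that of Tars 7 bases before it. The 5 cytosolic genes with the letters had log2 fold changes with AOA from 0.08 (Yars) to 0.51 (Aars), with a median of 0.31. The 9 matched cytosolic genes without them ranged from -0.28 to 0.51, with a median of 0.16. The ranges overlapped, and Eprs, without a match, rose as much as Aars. In HT-DNA against mock the medians were 0.08 with the letters and 0.28 without them. A match is a description of the letters and not a site of binding.

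HT-DNA+AOA+Asp was compared with HT-DNA+AOA to see what Asp did in the presence of the compound. This comparison shares the HT-DNA+AOA libraries with the one before it, so a high value there enters both with opposite signs. Most cytosolic synthetases were lower with Asp, 14 of 21, and 2 were higher, with a median log2 fold change of -0.23. The mitochondrial synthetases were evenly divided, with 6 of 17 higher, 6 lower and a median of 0.06. In all 10 members were higher and 22 lower in edgeR's test, or 22.7% and 50%, beside 28.3% and 26.4% of all genes tested. The median of all genes was -0.00. No member reached a 2-fold change, while 3.36% of all genes did so upward and 4.76% downward.

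Rars2 had the largest fall, from 31.9, 34.3 and 30.6 CPM to 20.5, 18.5 and 18.2 with Asp (log2 fold change -0.76 with SE 0.071, adjusted p = 7.82e-09 in edgeR). Gatc fell from 20.0, 20.3 and 22.6 CPM to 13.7, 12.3 and 12.05 (log2 fold change -0.73 with SE 0.10, adjusted p = 2.53e-06 in edgeR). Groups did not overlap in either gene, and the Asp libraries of Gatc lay among those of HT-DNA. Sepsecs fell to 30.7, 30.4 and 29.0 CPM (log2 fold change -0.58 with SE 0.065, adjusted p = 1.34e-07 in edgeR). Rars fell to 256, 242 and 258 CPM (log2 fold change -0.53 with SE 0.046, adjusted p = 2.51e-09 in edgeR). Each of these was below its HT-DNA+AOA libraries without overlap. Mars2 fell by 0.49, Tarsl2 by 0.47, Gars by 0.43, Eprs by 0.38 and Aars by 0.35 on the log2 scale, all called.

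Dars fell to 115, 120.5 and 116 CPM (log2 fold change -0.45 with SE 0.041, adjusted p = 6.8e-09 in edgeR). Nars fell to 429, 422 and 429 CPM (log2 fold change -0.26, edgeR adjusted p = 3.25e-06) and Nars2 to 17.9, 17.2 and 17.8 CPM (-0.31, adjusted p = 0.0022). Lars fell to 145, 145 and 147 CPM by a log2 fold change of -0.14, which did not pass in edgeR under library-size scaling (adjusted p = 0.142) or with HT-DNA+AOA replicate 1 left out (adjusted p = 0.0744). Lars2 went the other way, to 83.5, 99.5 and 91.1 CPM (log2 fold change 0.30 with SE 0.062, adjusted p = 0.000349 in edgeR). Its Asp libraries were above all HT-DNA+AOA libraries, with the widest spread of the 4 groups.

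Of the 17 mitochondrial synthetases, 6 (35.3%) were higher with Asp and 6 lower, beside 28.3% and 26.4% of all genes. The mitochondrial synthetases called lower were Rars2, Mars2, Nars2, Ears2 (-0.33), Yars2 (-0.21) and Tars2 (-0.18). The Yars2 call was lost in 3 of 12 alternatives. The members called higher were Farsa and Qars at 0.26 each, the mitochondrial Hars2 at 0.43, Lars2 at 0.30, Cars2 at 0.29, Fars2 at 0.25, Aars2 at 0.23 and Wars2 at 0.21, and the amidotransferase subunits Qrsl1 at 0.26 and Gatb at 0.21. Cars2, the cysteine enzyme, was at 33.1, 31.5 and 31.2 CPM in HT-DNA+AOA and at 39.6, 37.3 and 40.3 with Asp (SE 0.056, adjusted p = 0.000161 in edgeR). Its groups did not overlap. The calls of Aars2 and Fars2 were lost without HT-DNA+AOA replicate 2 and HT-DNA+AOA+Asp replicate 2 respectively (edgeR adjusted p = 0.0618 and 0.0671). Those of Gatb and Wars2 were each lost in 5 of 12 alternatives, with edgeR adjusted p of up to 0.0767 and 0.138. That of Qrsl1 was lost in 2, with edgeR adjusted p of up to 0.0546. For 9 of the 13 amino acids the mitochondrial gene had the higher log2 fold change, and the exceptions were methionine, arginine, tyrosine and asparagine.

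HT-DNA+AOA+Asp was last compared with HT-DNA, which shows where the pathway stood with both additions. Fewer members differed than in the other comparisons: 7 were higher and 5 lower in edgeR's test, or 15.9% and 11.4%. Over all genes tested the shares were 10.4% and 8.15%, and the difference from them was not tested. The cytosolic class had 4 higher and 2 lower, with a median log2 fold change of 0.02, and the mitochondrial class 2 higher and 3 lower, with a median of 0.04. The median of all genes was 0.00, and no member reached a 2-fold change, as 0.354% of all genes did upward and 0.211% downward. Under the alternatives tried, 3 of these 12 calls were kept in every case, with those of Rars2 and Cars2 among them.

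Rars2 was lower than in HT-DNA by -0.42 (SE 0.071, adjusted p = 0.000326 in edgeR), at 19.1 ± 1.23 CPM against 25.6 ± 0.462 and near its mock mean of 17.4 ± 1.03. All its Asp libraries were below all its HT-DNA libraries. Cars2 was higher by 0.25 (SE 0.056, adjusted p = 0.00397 in edgeR), at 39.0 ± 1.57 against 32.9 ± 0.848 CPM. Its HT-DNA libraries were at 33.9, 32.4 and 32.5 CPM. Lars2 was higher by 0.25 (SE 0.061, adjusted p = 0.00779 in edgeR), at 91.4 ± 7.99 CPM, close to its mock mean of 92.4 ± 2.59. The Lars2 call was lost without HT-DNA+AOA+Asp replicate 2 (edgeR adjusted p = 0.0682). Yars2 was lower by -0.25, with 33.8, 31.7 and 33.5 CPM, and its call was lost without HT-DNA replicate 1 or HT-DNA+AOA+Asp replicate 2 (edgeR adjusted p = 0.157 and 0.0848).

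Sepsecs stood 0.23 above HT-DNA, at 30.03 ± 0.879 against 25.7 ± 2.26 CPM (edgeR adjusted p = 0.0233), and did not pass when HT-DNA replicate 1 or HT-DNA+AOA+Asp replicate 1 or 2 was left out (adjusted p = 0.162, 0.08 and 0.0745). Dars stood 0.15 below on the log2 scale (-0.15, edgeR adjusted p = 0.0118), a call lost without HT-DNA replicate 1 or HT-DNA+AOA+Asp replicate 1 or 3. Eprs stood 0.13 above HT-DNA (edgeR adjusted p = 0.0481). The Eprs libraries with Asp were within 1 CPM of each other, at 483 to 484, and above the HT-DNA libraries, but the call was lost in 8 of 12 alternatives. The smaller differences of Aars, Cars and Iars, each 0.16, and of Farsb, -0.18, were each lost in 1 alternative.

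The partners of the synthetases that KEGG does not place in the pathway were described by count. Of 8 scaffold and editing genes, 5 were higher and 1 lower in HT-DNA against mock, 5 higher and 0 lower with AOA, and 0 higher and 6 lower with Asp against AOA. Over all genes tested the shares called higher and lower were 21.2% and 19.8%, 25.5% and 26.5%, and 28.3% and 26.4% in these comparisons. Eef1e1, a scaffold protein of the multisynthetase complex, had mean levels of 49.0 CPM in mock, 81.5 in HT-DNA, 113 in HT-DNA+AOA and 62.1 in HT-DNA+AOA+Asp. Its log2 fold changes were 0.73 in HT-DNA against mock, 0.48 with AOA and -0.87 with Asp against AOA (edgeR adjusted p = 2.72e-09, 3.25e-07 and 4.72e-11). Those exceed the changes of any synthetase in HT-DNA against mock and in Asp against AOA. Dtd2, an enzyme that removes wrongly attached amino acids from tRNA, was higher with AOA by 0.66 and lower with Asp by -0.75 (edgeR adjusted p = 1.54e-08 and 2.28e-09).

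A list of 6 genes held subunits of the cytosolic elongation factors, which bring charged tRNA to the ribosome and move it on, and Eef1akmt1, a methyltransferase that acts on eEF1A. With AOA 3 of the 6 were higher and 0 lower, Eef1a1 by 0.31 and Eef2 by 0.29 among them, beside 25.5% and 26.5% of all genes. With Asp against AOA 5 of the 6 were lower, Eef1akmt1 included (-0.37), beside 26.4% of all genes. Mitochondrial translation factors had 1 of 9 higher and 2 lower with AOA, shares not above those of all genes (25.5% and 26.5%). The latter were Tufm, which delivers charged tRNA to the mitochondrial ribosome, at -0.34, and Mtif3, an initiation factor, at -0.38 (edgeR adjusted p = 4.47e-06 and 0.000131). Genes for tRNA end processing had 7 of 9 higher and 0 lower in HT-DNA against mock, beside 21.2% and 19.8% of all genes, with a median of 0.49, led by Elac2 at 0.81, which trims the 3′ end. With AOA the same list had 0 higher and 3 lower, beside 25.5% and 26.5% of all genes, including Pop1, a subunit of the RNase P complex, at -0.76.

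The list for uncharged tRNA sensing and ATF4 holds sensing genes and Atf4 itself beside genes of the response. It did not move in a single direction with AOA: 4 of 10 were higher and 4 lower, beside 25.5% and 26.5% of all genes, with a median of 0.03. Ddit3, which encodes the stress factor CHOP, had means of 109 CPM in HT-DNA, 398 with AOA and 191 with AOA and Asp, log2 fold changes of 1.87 and -1.05 (edgeR adjusted p = 4.65e-18 and 1.7e-14). Chac1 rose by 0.63 and Trib3 by 0.55 with AOA, and Asns, the asparagine synthetase, by 0.19. Atf5 fell by 0.66 on the log2 scale, Impact, an inhibitor of GCN2, by 0.37 and Eif2ak4, which encodes GCN2, by 0.32. Atf4 mRNA itself was lower with AOA by -0.19 (edgeR adjusted p = 0.00124). Ddit3, Chac1 and Trib3 had been lower in HT-DNA than in mock, by -0.51, -0.50 and -0.49. Mean levels in mock and with AOA were 154 and 398 CPM for Ddit3, 46.5 and 51.0 for Chac1, and 265 and 275 for Trib3. In HT-DNA+AOA+Asp against HT-DNA, 5 of the 10 listed genes were higher and 0 lower, beside 10.4% and 8.15% of all genes. The mRNA level of a synthetase gives neither its protein nor the charging of its tRNA, and neither was measured here. Likewise Atf4 mRNA does not give the level of ATF4 protein, which was not measured.

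By the likeness measure, Pearson's r over the 12 libraries among 9134 genes with a mean of 10 CPM or more, the genes outside the pathway most like the mean log2 CPM of the cytosolic class were Slc7a5 (r = 0.996), Slc52a2 (r = 0.995) and Ipo4 (r = 0.994). Slc7a5 encodes a subunit of a transporter of large neutral amino acids, Slc52a2 a riboflavin transporter and Ipo4 a nuclear import receptor. The 12 libraries form 4 groups, so these values rest mainly on the order of the group means, and they are given as a description.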

How the data were processed

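Per the labels' protocols, TRIzol was used for extraction and Majorbio did the sequencing. The authors deposited a table of estimated counts per gene for 12 libraries, in which 14.4% to 16.6% of the values of a library are not whole. Not given in the sources used here are the aligner, the counter, the strand setting and the build. The mean columns that the authors placed beside the libraries were not used.

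Estimated counts were rounded and filtered with filterByExpr (minimum count 10, minimum total 15), which left 14694 genes, and scaled by TMM. All 12 libraries entered a single fit of edgeR 4.0.16 in R 4.3.3 with a term per group (8 residual degrees of freedom), tested by robust quasi-likelihood with Benjamini-Hochberg adjustment over all genes. Calls were made at adjusted p under 0.05. CPM use the scaled library sizes, and the SE of a log2 fold change was obtained from its F statistic. Replicates differed beyond sampling noise, with a chi-square per degree of freedom of 2.15 to 7.96. DESeq2 1.42.0, other filters, library-size scaling, a fit of the compared groups alone, a replicate block and leaving out each library were the alternatives.

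Values in the libraries compared are given for the 4 called members with the largest absolute log2 fold change in each comparison. For Nars, Nars2, Dars, Lars and Lars2 they are given in the groups that received DNA. Of the members, 1 is not reported here by name, though counts over the classes hold it. The members, classes and gene lists were chosen with earlier results of these data known. Class medians are descriptions without a test. Overlap of exons was read from GENCODE M21. Tars, Tars2 and Tarsl2 share sequence, so their reads may be split uncertainly. Promoters were taken from RefSeq. No promoter was matched for 12 members, among them Cars, Hars, Hars2, Lars, Nars, Pars2, Rars, Sepsecs, Vars, Wars and Gatb.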

Additional observations from a re-analysis of the deposited data

How the results depend on the processing

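No called member changed direction under any alternative tried. Calls kept under every alternative were 18 of 21 members in HT-DNA against mock, 26 of 28 in HT-DNA+AOA against HT-DNA, 24 of 32 in HT-DNA+AOA+Asp against HT-DNA+AOA and 3 of 12 in HT-DNA+AOA+Asp against HT-DNA. Scaled by library size only, which puts the median of all genes at -0.073 to 0.055 in the 4 comparisons, 9 members were lower in HT-DNA against mock. The cytosolic and mitochondrial medians became 0.051 and -0.065 in that comparison, 0.22 and -0.069 with AOA, and -0.17 and 0.12 with Asp against AOA. With Tarsl2 counted as mitochondrial, the cytosolic median with AOA was 0.23. The lowest count of a member was 149, and members with few counts had larger SE of the log2 fold change (0.111 for Pars2 with AOA, against 0.037 for Nars), so that differences of a size called in abundant members were not always called in them.

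Leaving out each library in turn gave 2643 to 3056 genes higher and 2484 to 2750 lower in HT-DNA against mock, 16 to 20 and 3 to 4 of them members, with a cytosolic median of 0.10 to 0.13 and a mitochondrial median of -0.057 to 0.092. For AOA the ranges were 3383 to 3600 and 3535 to 3812 genes, 20 to 24 and 6 to 7 members, and medians of 0.26 to 0.27 and -0.03 to 0.02. With Asp against AOA they were 3816 to 4091 and 3528 to 3753 genes, 8 to 9 and 21 to 23 members, and medians of -0.25 to -0.22 and 0.05 to 0.06. In HT-DNA+AOA+Asp against HT-DNA they were 952 to 1603 and 726 to 1286 genes, 4 to 8 and 3 to 5 members, and medians of -0.0046 to 0.010 and 0.011 to 0.061. The last counts moved most: 966 higher and 746 lower without HT-DNA replicate 1, 952 and 737 without HT-DNA replicate 2, 1002 and 726 without HT-DNA+AOA+Asp replicate 3, and 772 lower without HT-DNA+AOA+Asp replicate 2. Members higher there fell to 4 without HT-DNA replicate 2 or HT-DNA+AOA+Asp replicate 1 or 2, and members lower to 3 without HT-DNA replicate 1. The cause was not tested.

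Same-numbered libraries did not deviate together (correlations of -0.151 to 0.0456 in 18 pairs). With 3 libraries per group, this gives no sign of pairing by number but cannot show that the samples were unpaired. With a replicate block, HT-DNA+AOA+Asp against HT-DNA had 1261 genes higher and 987 lower, the call of Eprs was lost (edgeR adjusted p = 0.0886), and no other call of a member was lost.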
